A study of Mus musculus with 2 samples.

Results

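The genes described here are 46 cell cycle and DNA replication genes of the mouse, taken by name from a list of cyclins, their kinases, inhibitors of these kinases, E2F and pocket protein genes, replication genes and mitosis genes, and all 46 were found among the 21853 protein-coding genes annotated on the main chromosomes. Chromatin accessibility at these genes was measured with ATAC-seq, in which the Tn5 transposase cuts open chromatin and tags it for sequencing. The cells were megakaryocyte-erythroid progenitors (MEP), the bone marrow progenitors of red cells and platelets, from male C57BL/6J mice aged 5 to 6 weeks. The study holds 1 group with 2 libraries, biological replicates 1 and 2, each made from 50000 cells. The donor entry is the same for both libraries and nothing says that separate animals were used, so the spread between them may be partly technical.

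Cyclins activate the cyclin-dependent kinases (CDKs), which drive a cell through the phases of its division cycle, and CDK inhibitors hold them back. E2F factors, bound and restrained by the pocket proteins, control genes needed for DNA synthesis, while many genes of mitosis carry a cell cycle homology region (CHR) and CCAAT boxes in their promoters. Red cell precursors divide repeatedly before they leave the cycle, and megakaryocytes copy their DNA without dividing.

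Accessibility is given as the fold of a peak over its local background, the peak caller's own value as deposited, which was not scaled between libraries. A promoter was called when an accessible region lay within 1 kb of any annotated transcription start site (TSS) of the gene in the reproducibility-filtered list (irreproducible discovery rate, IDR) of both libraries. The promoter fold of a gene is that of its strongest such region in each library, and for Ccnd2 and Cdkn2c the strongest regions of the libraries were different ones. Read counts were not used, so the depth is unknown and a promoter with no call is not thereby shown to be closed. With 1 group and 2 libraries there were no groups of samples to test against each other, and the cell cycle genes are set beside all genes as a description. Of the 10 erythroid and megakaryocyte markers, 7 had a called promoter, against 45.7% of all protein-coding genes. They were Gata1, Klf1, Epor, Zfpm1, Nfe2, Tal1 and Kit. The megakaryocyte genes Itga2b (3.04 in replicate 1 and 3.86 in replicate 2) and Gp9 (2.91 and 3.25) had a region in the longer, less filtered lists alone. Of the markers of other cells, 0 of 8 granulocyte and macrophage, 1 of 5 B cell and 0 of 6 T and NK cell genes were called, against the same 45.7%. The B cell gene was Pax5, with folds of 9.62 in replicate 1 and 11.2 in replicate 2.

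Nearly all cell cycle promoters were accessible in MEP. Of the 46 genes, 43 were called in both libraries, against 45.7% of all protein-coding genes (9988 of 21853). The CDK regulators Wee1, Cdc25a and Cdc25b, all 7 E2F and pocket protein genes, all 11 replication genes and all 6 mitosis genes were called. The 3 genes without a call in both libraries were the cyclin gene Ccnd1, the kinase gene Cdk6 and the inhibitor gene Cdkn1a. Counted by library, 44 promoters were called in replicate 1, against 47.7% of all genes, and 44 in replicate 2, against 47.9%. In the longer lists that the authors call pseudoreplicated, 45 promoters had a region in both libraries, against 56.5% of all genes. The conservative list, called on both libraries together, also held 45 of them, against 54.5% of all genes.

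Most of these promoters were of moderate strength. The median over the 43 called genes of the mean fold in the libraries was 7.40, against 8.61 over all 9988 called genes. Above that overall median lay 14 of the 43 genes, and 7 exceeded the upper quartile of 10.3. When a region had to be in the upper 50% of its list by fold in both libraries, 17 of the 46 genes kept their call, against 27.7% of all genes. Among called genes alone this was 17 of 43, against 6057 of 9988, so these promoters were less often in that upper part. Replication and mitosis genes had the highest medians, 8.56 and 8.55, while the inhibitors had the lowest, 6.72. None of the 6 called inhibitors lay above the median of all called genes.

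**Figure D1:**
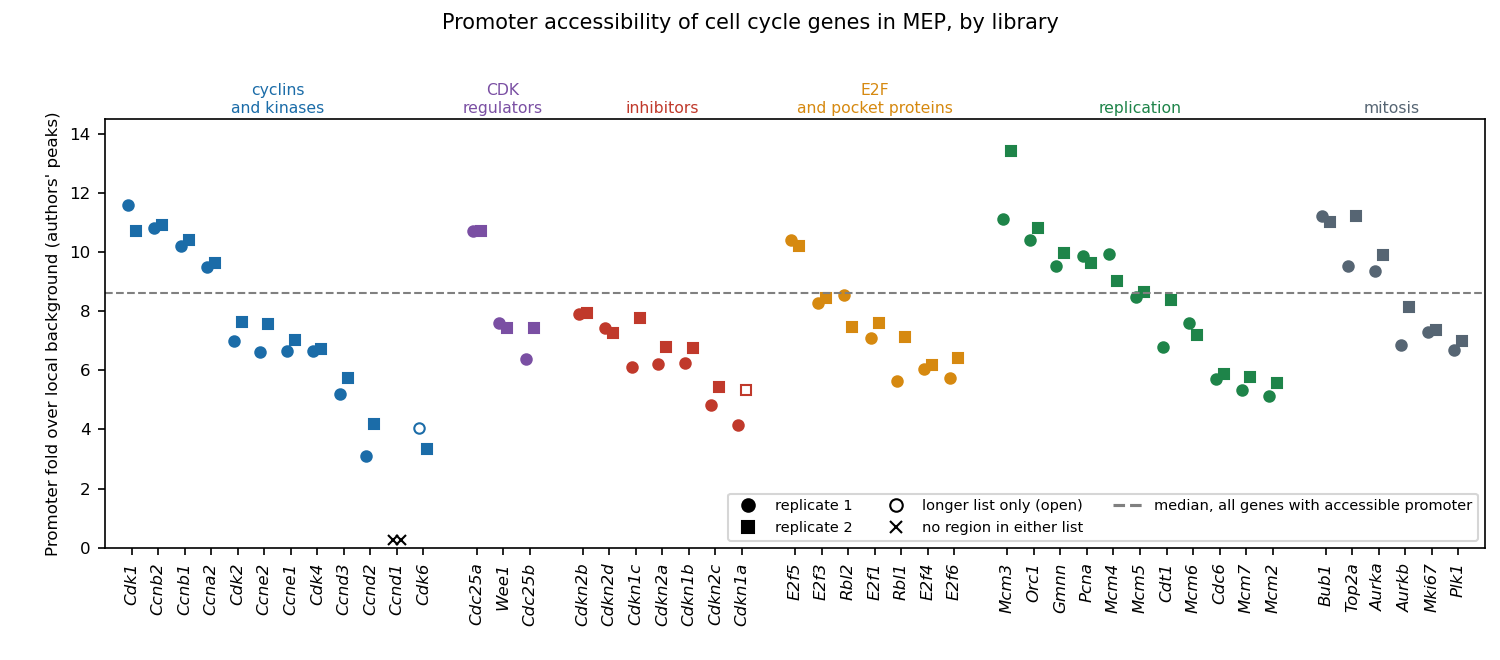
Fold over local background (linear axis from 0) of the promoter of each of the 46 genes in replicate 1 (circles) and replicate 2 (squares), by role, highest mean first. Open symbols are values found only in the longer list, crosses mark Ccnd1, which had no region in any list, and the dashed line is the median of all called genes (8.61); Mcm3 reaches 13.4 and Ccnd2 lies at 3.09 and 4.19, in different regions.

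The libraries gave similar values at these promoters. The absolute difference in fold between them had a median of 0.449 over the 43 genes, against 0.644 over all called genes. Replicate 2 had the higher fold at 34 of the 43 genes (79.1%), against 66.5% of all called genes, so the direction of the difference was that of the genome as a whole. The largest gap, 2.29, was at Mcm3. Accessible regions were taken for lying within 1 kb of any annotated TSS, so some closeness to a start is built in. Of the 45 genes with a promoter region in the conservative list, 41 had the summit within 250 bp of a TSS and 29 within 100 bp. The regions were 318 to 1637 bp wide, with a median of 914 bp over the called genes, against 947 bp over all called genes, and 17 of the 45 were at least 1 kb wide.

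Promoters of 300 bases, from 250 before to 50 after the RefSeq start, were at hand for 35 of the 46 genes. The other 11 were Ccna2, Ccnd1, Ccnd2, Ccne2, Wee1, Cdkn1c, E2f4, E2f5, Mcm4, Gmnn and Aurkb. Letters were searched on both strands for 6 motifs. The letters of E2F were any of TTCCCGC and its variant TTGGCGC, with the further variants TTCGCGC and then TTGCCGC. Those of CHR were TTTGAA and also its variant TTCGAA. The CCAAT box was searched as CCAAT itself, the GC box by the letters GGGCGG, and the motif of ETS factors by CCGGAAG. For GATA the letters were AGATAA with the variant AGATAG, and likewise TGATAA with the variant TGATAG. The 5 promoters shown were picked by these letters, as those of highest mean fold with each combination, to show what the matches look like. E2f1, next after Pcna, was left out because its window does not hold the summit of its accessible region. Mcm3 (chr1:20820263-20820562, minus strand) and Cdc25a (chr9:109875329-109875628, plus strand) hold E2F letters and no CHR. Bub1 (chr2:127831810-127832109, minus strand) and Ccnb2 (chr9:70421505-70421804, minus strand) hold CHR and CCAAT letters and no E2F. Pcna (chr2:132253131-132253430, minus strand) holds neither E2F nor CHR letters. All are from RefSeq on GRCm38.p6, written 5′ to 3′ in the direction of the gene, and capitals mark E2F, CHR and CCAAT matches.
Mcm3: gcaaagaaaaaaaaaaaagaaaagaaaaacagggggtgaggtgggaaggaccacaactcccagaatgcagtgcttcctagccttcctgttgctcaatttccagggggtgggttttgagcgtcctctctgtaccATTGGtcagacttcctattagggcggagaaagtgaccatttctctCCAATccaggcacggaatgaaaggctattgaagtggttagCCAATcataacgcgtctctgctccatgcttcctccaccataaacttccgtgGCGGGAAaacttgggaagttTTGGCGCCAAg
Cdc25a: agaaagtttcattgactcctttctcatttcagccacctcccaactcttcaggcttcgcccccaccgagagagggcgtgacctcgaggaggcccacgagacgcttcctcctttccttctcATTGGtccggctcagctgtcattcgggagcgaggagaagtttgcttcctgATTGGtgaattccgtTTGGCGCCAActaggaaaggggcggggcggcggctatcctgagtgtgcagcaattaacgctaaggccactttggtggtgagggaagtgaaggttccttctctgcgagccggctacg
Bub1: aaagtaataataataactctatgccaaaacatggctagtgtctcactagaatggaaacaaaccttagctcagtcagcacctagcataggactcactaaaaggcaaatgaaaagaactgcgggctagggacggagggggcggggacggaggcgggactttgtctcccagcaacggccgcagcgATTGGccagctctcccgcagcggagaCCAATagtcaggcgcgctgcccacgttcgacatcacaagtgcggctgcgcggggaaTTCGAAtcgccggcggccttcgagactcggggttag
Ccnb2: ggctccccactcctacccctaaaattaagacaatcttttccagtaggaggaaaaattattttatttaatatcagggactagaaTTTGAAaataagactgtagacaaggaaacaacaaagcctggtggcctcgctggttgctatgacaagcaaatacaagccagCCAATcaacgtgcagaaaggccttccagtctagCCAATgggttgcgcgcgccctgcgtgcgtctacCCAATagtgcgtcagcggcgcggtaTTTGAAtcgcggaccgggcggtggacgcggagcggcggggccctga
Pcna: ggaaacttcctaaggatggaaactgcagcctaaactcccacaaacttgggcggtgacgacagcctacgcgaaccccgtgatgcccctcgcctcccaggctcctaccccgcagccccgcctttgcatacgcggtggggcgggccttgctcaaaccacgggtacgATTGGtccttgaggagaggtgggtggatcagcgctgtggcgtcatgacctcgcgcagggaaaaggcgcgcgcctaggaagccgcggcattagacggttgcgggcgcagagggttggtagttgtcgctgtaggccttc

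In the Mcm3 promoter the E2F letters follow the start and include the palindrome TTGGCGCCAA, which counts as a match on each strand. The same palindrome stands before the start of Cdc25a. Ccnb2 carries 3 CCAAT boxes at positions -87, -54 and -21 from the start, followed by a CHR at position 5, and a further CHR at -167. Bub1 has a pair of CCAAT boxes at -68 and -42 and a CHR at position 15. In Pcna the capitals mark a single CCAAT box. Positions are those of the first base of a match, and position 1 is the first base of the transcript.

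E2F letters occurred in 16 of the 35 promoters, against 12.6% of all 16531 promoters of the same length and 18.8% of the 7993 with a called promoter. By role, they were in 7 of 9 replication genes (all but Mcm2 and Pcna) and in 1 of 5 mitosis genes (Mki67). Mcm6 had 5 E2F matches, and 9 of the 35 promoters had 2 or more, against 1.72% of all promoters and 2.78% of those called. Matches that overlap each other were counted separately, and of the 16 promoters 1 had no E2F match free of a CCAAT box, Ccnb1. CHR letters were in 13 of the 35 promoters, against 17.2% of all promoters and 13.5% of those called. All 5 mitosis genes with a sequence held them (Plk1, Aurka, Bub1, Mki67 and Top2a). CCAAT boxes were in 22 of 35, against 38.9% of all promoters and 42.2% of those called. Among the 22 were 5 of 5 mitosis and 7 of 9 replication genes. Top2a, whose enzyme untangles sister chromosomes, had the most of both, with 6 CCAAT boxes and 4 CHR matches. CHR and CCAAT letters together were in 11 of 35 promoters, against 7.11% of all and 6.07% of those called. Of the 35, 15 had 2 or more CCAAT boxes, against 13.3% of all and 17.8% of those called.

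**Figure D2:**
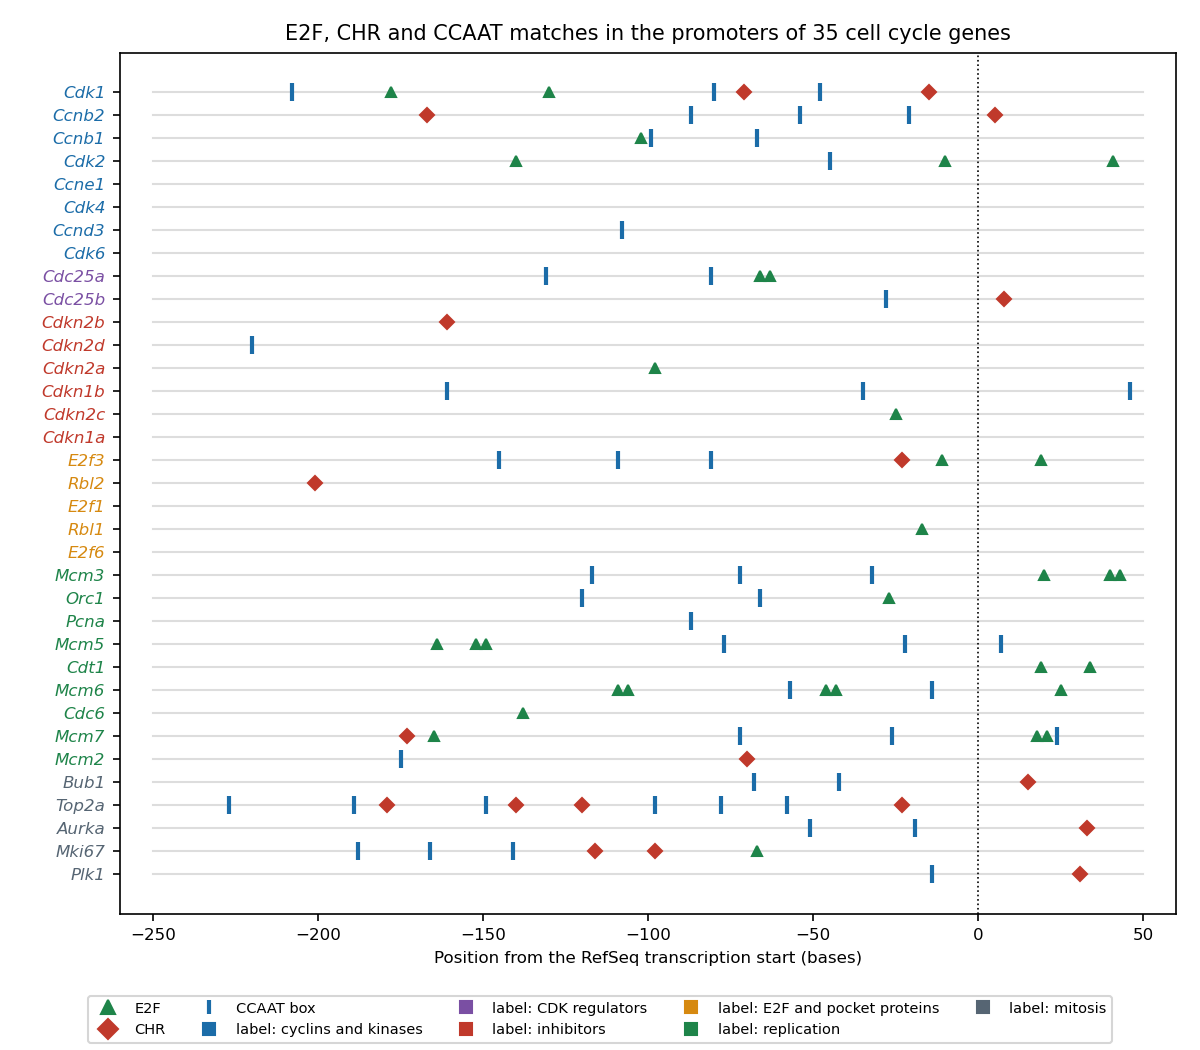
Position of E2F (triangles), CHR (diamonds) and CCAAT (bars) matches in bases from the RefSeq start (dotted line) in the promoters of 35 cell cycle genes, with gene names coloured by role. CCAAT bars lie mostly upstream of the start, with 6 in Top2a, and each of the 5 mitosis genes has at least 1 CHR.

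GC boxes were in 30 of 35 promoters, against 48.9% of all promoters and 68.2% of those with a called promoter. ETS letters were in 4, against 12.5% of all and 21.5% of those with a called promoter. GATA letters were in 2 (Mcm7 and Top2a), against 25.7% of all and 17.8% of those with a called promoter. Base composition differed along with these counts, and its part in them was not tested. The median GC content was 63.0% over the 35 genes, against 61.3% over genes with a called promoter and 57.0% over all genes. Replication and mitosis genes were the lowest groups in GC content, at 57.3% and 57.7%, and had the highest ratios of observed to expected CpG, 0.935 and 0.952, against 0.791 over genes with a called promoter. The window held the summit of the accessible region in 27 of 35 genes, all but Ccnd3, Ccne1, Cdk6, Cdkn1b, Cdkn2c, E2f1, Rbl1 and Cdc6. Within 100 bp of that summit instead, 10 of 35 genes had E2F letters, against 12.8% of 9433 genes, and 11 had CHR letters, against 6.31%. A match describes these letters in this window and is not a shown binding site.

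**Figure D3:**
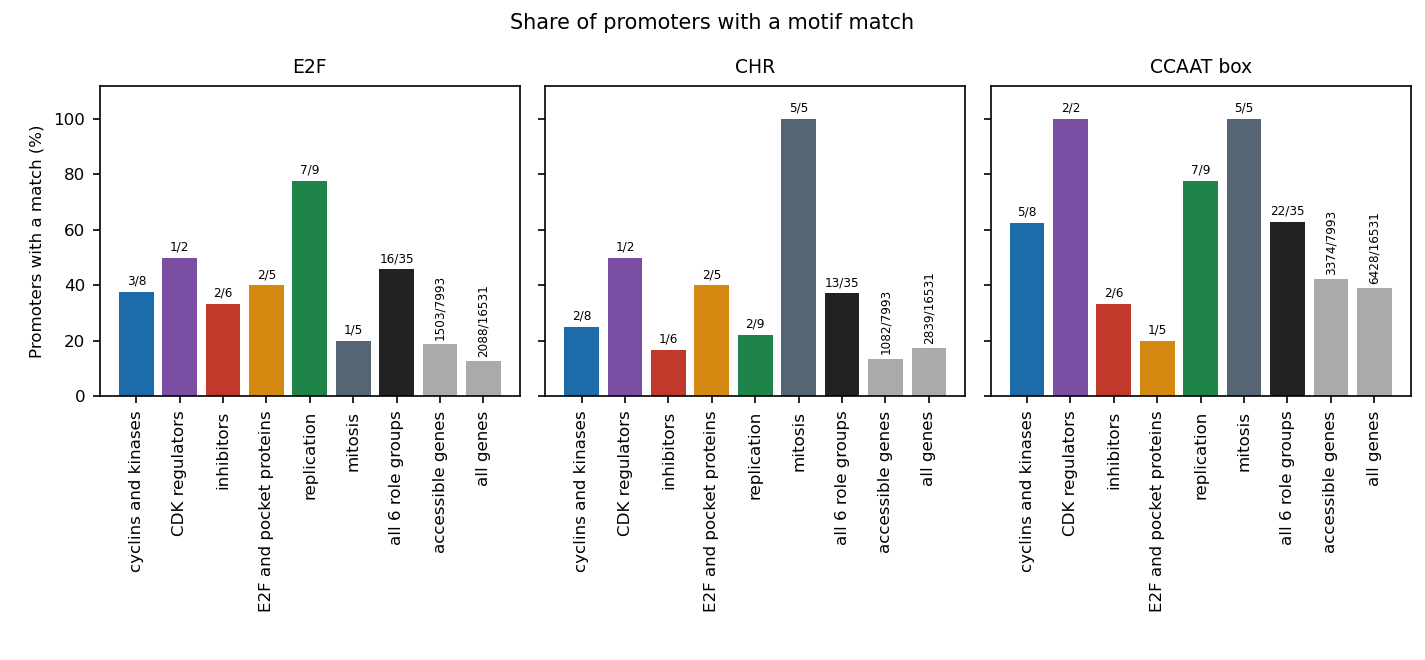
Percent of promoters with at least 1 E2F, CHR or CCAAT match for each role group, all role groups together, all genes with a called promoter (accessible genes) and all genes, with counts above the bars. E2F is most frequent in replication genes (7 of 9), while CHR and CCAAT are found in all 5 mitosis genes.

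Among the cyclins and kinases, 10 of 12 promoters were called, and the genes acting in mitosis were the strongest. Cdk1, the kinase that drives entry into mitosis, had folds of 11.6 in replicate 1 and 10.7 in replicate 2 (11.2 ± 0.596, SD, n = 2) in a region of 1160 bp (chromosome 10, 69352192 to 69353351), higher than 83.4% of called genes. Its partners Ccnb2 (10.8 and 10.9) and Ccnb1 (10.2 and 10.4), which encode B-type cyclins, followed. Ccna2, the cyclin of S phase and G2, had 9.48 and 9.64. These 4 genes were the only cyclins and kinases above the median of all called genes, and each was above it in both libraries. Cdk2, the kinase partner of cyclins E and A, had 6.99 in replicate 1 and 7.63 in replicate 2. A start of Pmel lies within 1 kb of a Cdk2 start. The E-type cyclin genes, which act at entry into S phase, stood close to Cdk2 in fold. Ccne2 had 6.63 and 7.57, and Ccne1 had 6.64 and 7.01, with its strongest region centred 1945 bp downstream of its most upstream TSS. A region overlapping the most upstream TSS of Ccne1 had 4.08 and 3.57, so with that start alone, or with a window of 500 bp, its mean fold was 3.82.

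Genes of the D-type cyclins and their kinases, which pass growth signals to the cycle, had the lowest mean folds in this group or no call in both libraries. Cdk4 had 6.66 and 6.73 in replicates 1 and 2, with an SD of 0.0444. In replicate 1 Cdk4 was just above Ccne1 (6.64) and Ccne2 (6.63), and Ccne1 was below it with its most upstream TSS alone (3.82). Ccnd3, the D-type cyclin known to set how often red cell precursors divide, had 5.20 and 5.73. The summit of that region lay 1177 bp from the nearest TSS and 93290 bp downstream of the most upstream one. With a window of 500 bp, or with the most upstream TSS alone, Ccnd3 was no longer called, which left 9 of 12 cyclins and kinases. Regions on the starts themselves were in the longer lists, with 3.01 and 4.10 at the most upstream TSS. Ccnd2 had the lowest values of all 43 called genes, and no single region of it was in both IDR-filtered lists. Replicate 1 gave 3.09 with the summit upstream of the most upstream TSS (chromosome 6, 127152156 to 127152752), while replicate 2 gave 4.19 at a start further downstream (127150904 to 127151448), where the longer list of replicate 1 had 4.07. Cdk6 was called in replicate 2 alone, at a fold of 3.34, and the longer list of replicate 1 held that region (chromosome 5, 3342561 to 3343412) at 4.04. In the longer lists Cdk6 also had regions on annotated starts, with 3.22 and 3.28 at the most upstream TSS and 3.13 and 3.47 at a summit 2388 bp downstream of it. Ccnd1 had no region within 1 kb of its TSS in any list used here. It did have accessible chromatin nearby, with 6 distal regions, of which 1 lay inside the gene.

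All 3 regulators of CDK phosphorylation were called. Cdc25a, a phosphatase that removes inhibitory phosphates from CDKs, had 10.7 in each library, and its SD of 0.0183 was the lowest of the 43 genes. Its significance was also high, 100 and 98.5 on the −log10 p scale in replicates 1 and 2. Wee1, the kinase that adds such phosphates, had 7.59 and 7.42. Cdc25b, the related phosphatase that acts at mitosis, had 6.37 in replicate 1 and 7.44 in replicate 2. A start of Spef1 lies within 1 kb of a Cdc25b start.

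The CDK inhibitor promoters were called in 6 of 7 genes, at moderate folds. In the INK4 family, whose products block Cdk4 and Cdk6, Cdkn2b had the highest values, 7.89 in replicate 1 and 7.94 in replicate 2. Cdkn2d had 7.42 and 7.26. Cdkn2c was lowest, with a region at each of its annotated starts. The upstream one (chromosome 4, 109666666 to 109667277) had 4.50 in replicate 1 and 5.44 in replicate 2, and the downstream one (109665151 to 109665891) had 4.83 and 4.79. Cdkn2a has a pair of annotated promoters, from which the INK4 protein and the unrelated protein Arf are made. Its upstream promoter, that of Arf, had 6.22 and 6.80, while the downstream one had a region in neither IDR-filtered list per library, with 4.90 and 6.30 in the longer lists and 5.51 in the conservative list. In the Cip/Kip family, which binds cyclin and kinase together, Cdkn1b had 6.24 and 6.74. Cdkn1c had 6.11 in replicate 1 and 7.77 in replicate 2 (6.94 ± 1.17, SD, n = 2). Cdkn1a, an inhibitor induced after DNA damage, was called in replicate 1 alone at 4.16. The longer list of replicate 2 held that region at 5.35. Its summit lay at -49 bp from the nearest annotated TSS, 2741 bp downstream of the most upstream one. The inhibitors as a group overlapped the cyclins and kinases and the E2F genes in fold.

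Promoters of all 7 E2F and pocket protein genes were called, with 1 above the median of all called genes. That gene was E2f5, one of the repressing E2F factors, with 10.4 in replicate 1 and 10.2 in replicate 2. E2f3, an activator of S-phase genes, had 8.29 and 8.43. E2f1, the best known activator, had 7.08 and 7.60. E2f4, the factor that works with pocket proteins in resting cells and is needed for red cell maturation in mice, had 6.05 and 6.19 in the narrowest region of all, 318 bp. E2f6, a repressor that does not bind pocket proteins, had 5.73 and 6.41. The pocket protein genes Rbl2, with 8.56 and 7.46, and Rbl1, with 5.63 and 7.13, differed in which library was higher. Those of Rbl1 and Rbl2 were also among the widest regions, 1425 and 1474 bp.

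The 11 replication genes spanned the range from the strongest promoter of all 46 genes to some of the weakest. The hexameric MCM helicase, which unwinds DNA, has 6 subunits encoded by Mcm2 to Mcm7, and their promoters differed widely. Mcm3 had 11.1 in replicate 1 and 13.4 in replicate 2 (12.3 ± 1.62, SD, n = 2; chromosome 1, 20819897 to 20820744), above 91.8% of called genes. Mcm4 had 9.92 and 9.03, and a start of Prkdc lies within 1 kb of an Mcm4 start. Mcm5 followed with 8.47 and 8.64. Mcm6 had 7.61 and 7.19. At the low end lay Mcm7, with 5.33 and 5.78 in the widest region of all (1637 bp). A start of Ap4m1 lies within 1 kb of an Mcm7 start. Mcm2 was lower still, with 5.12 and 5.57 (5.34 ± 0.317, SD, n = 2). The gap between Mcm3 and Mcm2 was larger than the spread between libraries.

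Factors that place the helicase on DNA also differed. Orc1, the largest subunit of the origin recognition complex, had 10.4 and 10.8, and a start of Prpf38a lies within 1 kb of the Orc1 start. Cdt1, which brings the helicase to origins, had 6.78 in replicate 1 and 8.36 in replicate 2. Cdc6, its partner in loading, had 5.71 and 5.89. Gmnn, whose product geminin inhibits Cdt1, had 9.54 and 9.97. Pcna, the sliding clamp of DNA polymerases, had 9.87 and 9.61, with a significance of 94.8 and 91.4 on the −log10 p scale. Among these 5 genes Orc1, Gmnn and Pcna lay above the median of all called genes in both libraries and Cdc6 and Cdt1 below it.

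Mitosis genes were all called, 3 of 6 above the median of all called genes. Bub1, a kinase of the spindle checkpoint, had 11.2 in replicate 1 and 11.0 in replicate 2, in a region of 1199 bp. Top2a had 9.51 and 11.2 (10.4 ± 1.19, SD, n = 2). Aurka, a kinase of the centrosomes and spindle poles, had 9.34 and 9.89, and a start of Cstf1 lies within 1 kb of an Aurka start. The remaining 3 were lower in both libraries. Aurkb, the kinase of the chromosomal passenger complex, had 6.85 and 8.13. Mki67, which encodes the proliferation marker Ki-67, had 7.28 and 7.36. Plk1, a kinase with several roles in mitosis, had 6.68 and 6.98, in a region 1524 bp wide. The median width in this group, 1200 bp, was the largest of the 6 groups.

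Accessible regions away from promoters were counted in the conservative list, over 1 kb from every protein-coding TSS and with the summit inside the gene or within 50 kb of either end. There were 214 such distal regions around the 46 genes (193 when they had to lie over 1 kb from every annotated TSS of any gene type). At least 1 was found for 43 of the 46 genes, against 77.2% of all genes and 93.2% of genes with a called promoter, and none for Cdkn2a, Cdkn2b and E2f5. The median number per gene was 4, against 4 for all genes with a called promoter and 3 for all genes. Per 100 kb of sequence searched the median was 3.68, against 2.65 for all genes with a called promoter. A distal region can count for several genes, and its place does not show which gene it acts on. The nearest protein-coding TSS was that of a cell cycle gene for 74 of the 214 regions, a count not made for other genes. Of the 214, 83 were also in both IDR-filtered lists (38.8%, against 38.9% of all distal regions). In both longer lists were 196, which was not counted over all distal regions. Folds of distal regions per library are those of the longer lists.

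**Figure D4:**
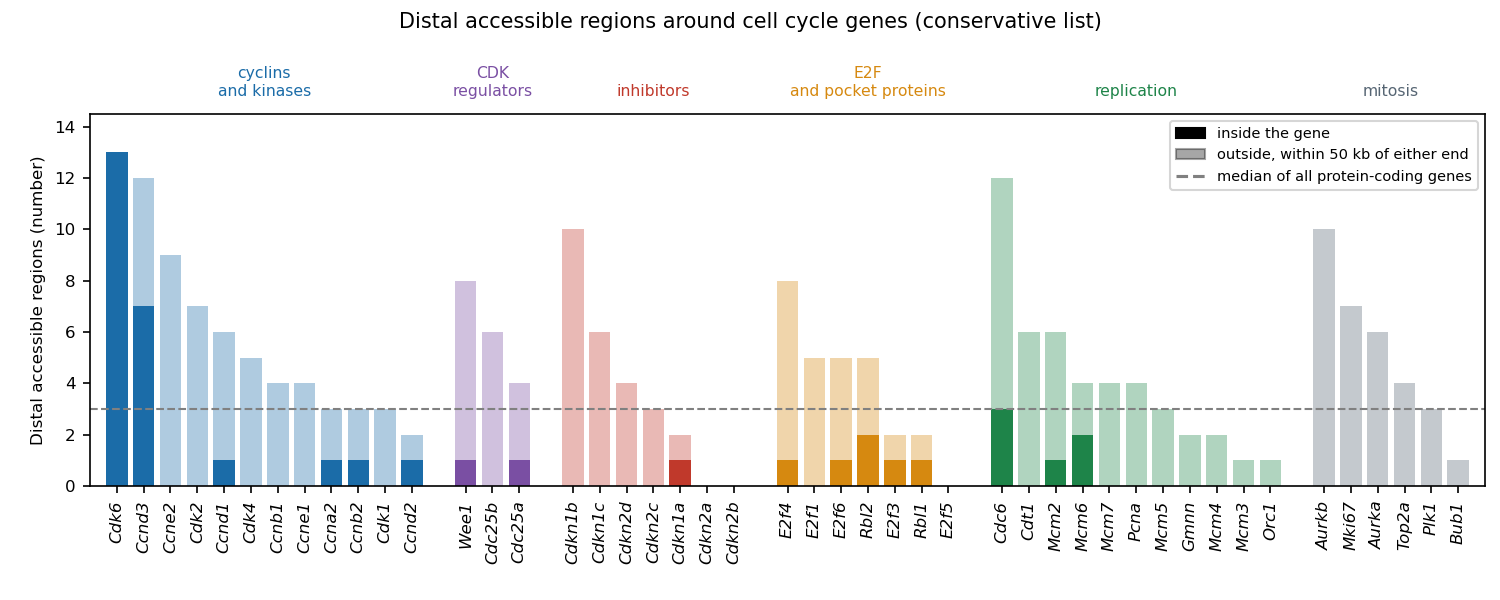
Number of distal accessible regions of each gene (bars from 0), split into those inside the gene (dark) and those outside it within 50 kb (light), by role. Cdk6 (13) and Ccnd3 (7) have the most inside the gene and are the longest of the 46 genes, and the dashed line is the median of all protein-coding genes (3).

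Most features of these regions were close to those of all distal regions, with the share in exons as an exception. Introns held 48.1% of the 214 summits, against 49.4% of all 32778 distal summits, and exons 10.7%, against 5.89%. GATA letters, the motif bound by the erythroid and megakaryocyte factor GATA1, stood within 100 bp of the summit in 114 of 214 regions, against 53.8% of all distal regions. E2F letters were in 9 of them, against 2.79%. The median fold in the conservative list was 5.76, against 6.36 over all distal regions. The cyclins and kinases had 71 of the 214 regions and GATA letters in 43 of those 71 (60.6%), 10 at Cdk6 and 9 at Ccnd3. Of the other groups, CDK regulators had them in 55.6%, E2F and pocket proteins in 51.9%, replication genes in 48.9% and mitosis genes in 48.4%. The inhibitors had 25 regions, with GATA letters in 11 (44.0%).

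The genes with most distal regions included the kinase and the cyclin of the D-type complex whose own promoters were weak, Cdk6 and Ccnd3. Of the 46 genes 5 had 10 or more distal regions, against 3.88% of all genes and 5.73% of those with a called promoter. The length searched differs with the gene, and per 100 kb the order was another one. Cdc6 (10.3), Cdkn1b (9.51) and Aurkb (9.43) were highest, against 6.17 for Ccnd3 and 4.49 for Cdk6, whose group had a median of 4.10. Cdk6 (chromosome 5, 3341485 to 3531008) had 13, all inside the gene, and 10 of them held GATA letters. The nearest TSS was that of Cdk6 for 6 of the 13, and that of Fam133b for those from 122 kb on. The strongest of the 13 were an intronic region 12988 bp from the most upstream TSS, with folds of 6.06 in replicate 1 and 7.27 in replicate 2, and one at 53.9 kb, with 6.70 and 6.31. Another intronic region at 171 kb had 4.82 and 5.57, and these 3 were in both IDR-filtered lists. The regions at 122 kb (4.11 and 4.48), 125 kb (4.43 and 4.48) and 162 kb (4.27 and 4.27) passed that filter in replicate 2 alone. The other 7, at 19.9, 20.8, 26.8, 45.8, 130, 153 and 157 kb, were in both longer lists with mean folds of 2.88 to 4.47. That at 130 kb overlapped an exon. Every one of the 13 had a lower mean fold than the median called promoter, and the median of their mean folds was 4.30.

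Ccnd3 (chromosome 17, 47505051 to 47599691) had 12 distal regions, of which 7 lay inside the gene and 9 held GATA letters. The strongest was an intronic region of 856 bp at 31.0 kb, with 11.0 in replicate 1 and 10.9 in replicate 2 (11.0 ± 0.0985, SD, n = 2), above its called promoter (5.20 and 5.73) in both libraries. An exonic region at 73.8 kb had 9.33 and 8.94. Intronic regions at 6.20 kb (8.04 and 7.58), 63.5 kb (6.83 and 8.24), 18.5 kb (6.31 and 6.73), 16.7 kb (6.36 and 6.21) and 3.10 kb (3.94 and 4.01) completed those inside the gene. Outside it, the strongest lay 113 kb from the most upstream TSS in an intron of Med20, and there the libraries differed more, with 9.02 in replicate 1 and 12.2 in replicate 2. Over its 12 regions the median mean fold was 6.40, and 8 were in both IDR-filtered lists.

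The replication gene Cdc6 (chromosome 11) also had 12 distal regions, 6 with GATA letters. Inside the gene were 3 intronic regions, at 3.86 kb (4.62 in replicate 1 and 5.77 in replicate 2), 9.99 kb (5.04 and 5.62) and 10.6 kb (3.43 and 3.75). The strongest lay 33.7 kb upstream in an intron of Wipf2, with 9.58 and 10.9. At 2.98 kb upstream another had 6.11 and 6.02, close to the fold of the Cdc6 promoter itself (5.71 and 5.89). The neighbouring gene Top2a shares 3 of these regions, all in introns of Rara.

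Among the other genes with many distal regions, none or 1 lay inside the gene. Aurkb and Cdkn1b had 10 each, all outside the gene, and 4 of each set held GATA letters. Over 1 kb from every annotated TSS of any gene type, Aurkb had 7 and Cdkn1b had 8. At Aurkb the strongest had 6.75 in replicate 1 and 7.13 in replicate 2, 28.0 kb downstream of the TSS. At Cdkn1b it had 9.55 in both libraries, 51.9 kb downstream and nearest to Apold1. Ccne2 had 9 regions, 5 with GATA letters, and its strongest were in Ints8, at 42.3 kb (9.29 and 7.82) and 51.2 kb (9.44 and 7.65). E2f4 had 8, of which 1 was in its own intron at 2.51 kb, with 5.38 and 6.12, similar to its promoter (6.05 and 6.19). Wee1 had 8 too, and its intronic region at 1.95 kb was weak, with 3.07 and 3.72 in the longer lists.

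**Figure D5:**
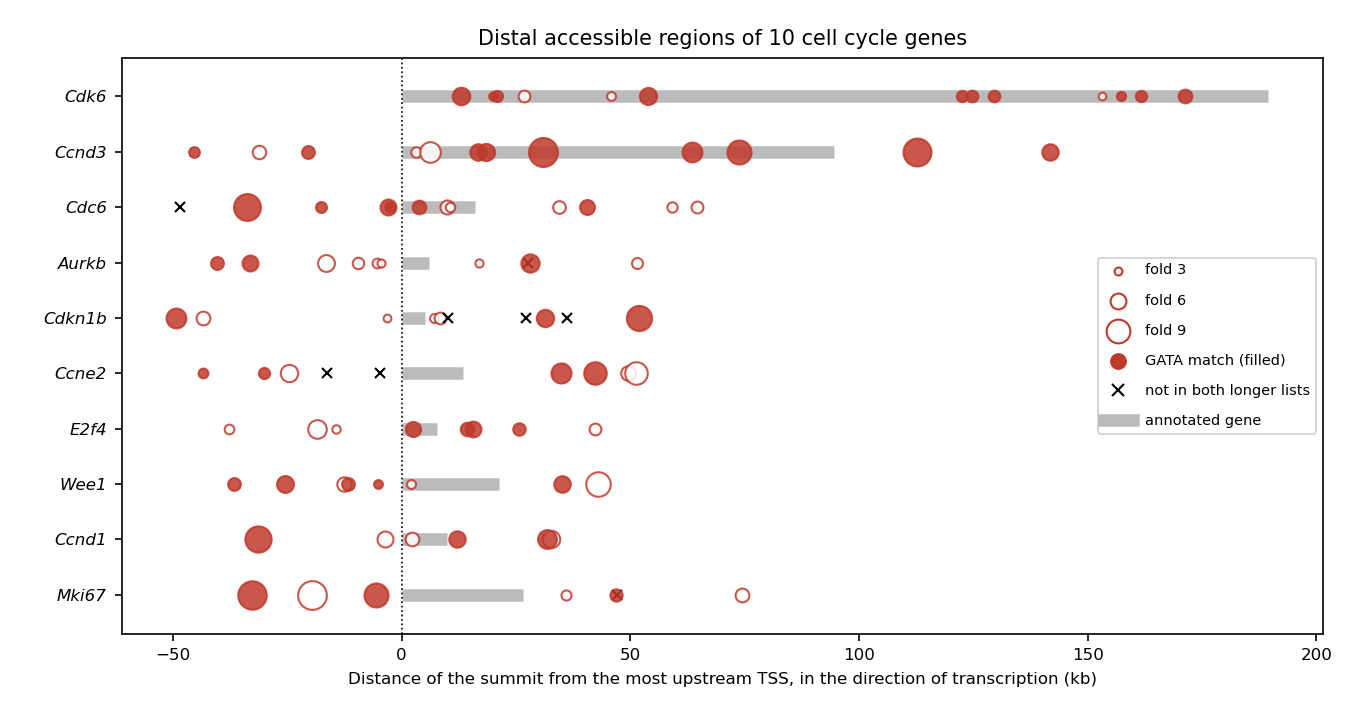
Distal accessible regions of 10 cell cycle genes by distance of the summit from the most upstream TSS in kb (linear axis, positive in the direction of transcription), where the area of a circle grows with the square of the mean fold, filled circles hold GATA letters and grey bars are the genes. Cdk6 has all 13 regions inside the gene, the largest circles include those of Ccnd3 at 31.0 and 113 kb, and crosses mark regions missing from 1 or both longer lists, which carry no mean fold.

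By mean fold over both libraries, the 12 strongest distal regions belonged to 9 genes and ranged from 9.14 to 11.6, against 12.3 for the strongest promoter. First was a region of 510 bp 36.8 kb downstream of the start of Cdc25b and nearest to Mavs, with 11.4 in replicate 1 and 11.8 in replicate 2. Mki67, whose promoter had 7.28 and 7.36, had a pair of stronger intergenic regions upstream, at 19.6 kb (10.3 and 11.4) and 32.8 kb (10.4 and 11.2), for both of which it was the nearest gene. A nearer upstream region of Mki67, at 5.52 kb, had 9.13 and 9.11. The Ccnd1 gene, without a called promoter, had a region 31.5 kb upstream with 9.12 in replicate 1 and 10.8 in replicate 2, and was the nearest gene to it. Within Ccnd1 an intronic region at 2.18 kb had 4.74 and 5.63. A region 46.3 kb downstream of the start of Ccne1 showed the largest gap between libraries among the 12, with 8.72 and 12.4 (10.5 ± 2.58, SD, n = 2). The remaining strong regions were 22.2 kb upstream of Cdkn2d (9.21 and 9.41, nearest to Ap1m2) and 42.9 kb downstream of the start of Wee1 (9.21 and 9.37, nearest to Wee1), beside those of Ccnd3, Cdc6 and Cdkn1b given above.

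Of the 12 strongest distal regions, 9 held GATA letters, against 53.3% of the 214 regions and 53.8% of all distal regions, of any strength. Equally strong distal regions of other genes were not counted. The sequences of the first 4 of these 9, picked for holding these letters, are given from 100 bases before to 100 after the summit. They are the regions of Cdc25b at 36.8 kb (chr2:131223660-131223860), Ccnd3 at 31.0 kb (chr17:47535953-47536153), Mki67 at 32.8 kb upstream (chr7:135749054-135749254) and Ccnd3 at 113 kb (chr17:47617739-47617939). All are on GRCm38.p6, plus strand, 5′ to 3′, and capitals mark GATA matches on either strand.
Cdc25b distal: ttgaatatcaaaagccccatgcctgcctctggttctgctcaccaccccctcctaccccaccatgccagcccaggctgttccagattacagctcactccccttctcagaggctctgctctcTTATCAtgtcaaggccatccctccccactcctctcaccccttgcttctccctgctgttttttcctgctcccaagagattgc
Ccnd3 intron: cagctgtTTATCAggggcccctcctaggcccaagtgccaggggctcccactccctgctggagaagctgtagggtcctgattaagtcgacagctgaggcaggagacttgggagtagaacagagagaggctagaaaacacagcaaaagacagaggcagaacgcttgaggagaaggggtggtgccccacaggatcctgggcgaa
Mki67 upstream: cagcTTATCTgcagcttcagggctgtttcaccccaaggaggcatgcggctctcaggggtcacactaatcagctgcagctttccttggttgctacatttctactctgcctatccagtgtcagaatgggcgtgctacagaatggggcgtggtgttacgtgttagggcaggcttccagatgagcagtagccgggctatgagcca
Ccnd3 downstream: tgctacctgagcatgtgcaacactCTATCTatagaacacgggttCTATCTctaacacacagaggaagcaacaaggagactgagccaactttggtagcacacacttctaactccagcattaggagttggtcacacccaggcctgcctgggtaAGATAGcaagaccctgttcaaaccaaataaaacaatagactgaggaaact

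The Mki67 and the first Ccnd3 region carry a single GATA match near the left edge of the window, away from the summit, while that of Cdc25b lies close to its centre. The region beyond Ccnd3 has 3 matches.

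Other genes of the cycle were measured the same way, from a list of 74 that covers further subunits of the replication machinery, nucleotide synthesis, checkpoints, kinetochore and the DREAM complex. Of these, 70 were called in both libraries, against 45.7% of all genes, and all 74 had a region in both longer lists. Their median mean fold was 9.54, above the 7.40 of the 43 genes described above. The highest were Pttg1, which encodes securin (15.0 in replicate 1 and 15.3 in replicate 2), Skp2, part of the ligase that marks Cdkn1b protein for degradation (13.1 and 14.1), and Ccnf, which encodes cyclin F (13.2 and 13.6). Those called in neither library were Pola2, a subunit of DNA polymerase alpha, at 4.05 and 4.35 in the longer lists, and Tk1, thymidine kinase, at 3.06 and 3.34. Tfdp1, the partner of E2F factors in DNA binding, was called in replicate 1 alone (4.17), and Lin9, a DREAM subunit, in replicate 2 alone (5.50).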

How the data were processed

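ATAC-seq peak lists of 2 MEP libraries were used. The deposited ratio of each peak was taken, from its values and its column, to be its fold over local background. The deposited −log10 p column holds each peak's significance. The deposited score in the ranked list holds the −log10 global IDR. Per the file headers and the deposited read-me texts, lists are on mm10 and came from filtered alignments with an exclusion list. The aligner and the peak caller, with their versions, were not given in the sources used here. In the ranked list 8 columns of per-library values were not used. Peaks were merged where they overlapped or touched, each region carrying the summit and fold of its most significant peak, on 21 chromosomes, and 0 peaks passed a chromosome end. GENCODE M21 gave 21853 protein-coding genes and 54361 TSS. A promoter region overlapped a TSS ± 1 kb by at least 1 bp. Promoter sequences and the genome came from RefSeq (GRCm38.p6). Role groups, the list of 74 other genes, markers and motifs are counted with no test, and the cell cycle genes and these lists were chosen with earlier results of these data known. Named in full were all 46 genes, the 8 genes with most distal regions and the 12 strongest distal regions. One marker gene is not reported here. Counting steps were checked on simulated data. Python 3.11.15, numpy 2.4.6, pysam 0.24.0 and matplotlib 3.10.9 were used.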

Additional observations from a re-analysis of the deposited data

How the results depend on the processing

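Counts of called promoters kept their size, within 1.5 times, under the other TSS windows, lists and single libraries tried, with 1 exception. Within them, Ccnd3 lost its call with a window of 500 bp and with the most upstream TSS alone, and Ccne1 went to a mean fold of 3.82, against 6.82. Requiring the upper 50% of regions by fold left 17 of the 46 promoters: 4 of cyclins and kinases, 1 of CDK regulators, 1 of inhibitors, 2 of E2F and pocket proteins, 6 of replication and 3 of mitosis genes. Numbers of distal regions depended on the definition. For all 46 genes there were 109 within 20 kb and 353 within 100 kb, 74 with the gene as nearest, 75 in the upper 50% by fold, 391 in the replicated list, 85 regions of replicate 1's own IDR-filtered list that overlap one of replicate 2 (83 when regions of the conservative list are counted) and 106 to 115 from a single library. For cyclins and kinases the same definitions gave 39, 109, 29, 28, 135, 32 and 36 to 45. For CDK regulators they gave 10 within 20 kb, 10 as nearest, 6, 28, 7 and 8 to 10. For inhibitors they gave 10, 45, 8, 6, 48, 10 and 12 to 12. For E2F and pocket proteins they gave 16, 53, 9, 9, 49, 10 and 14 to 14. For replication genes they gave 20 within 20 kb, 12 as nearest, 15, 88, 17 and 20 to 22. For mitosis genes they gave 14, 62, 6, 11, 48, 10 and 15 to 15. The definitions differ in the sequence searched, the list used or the gene a region is assigned to, and the part of each was not tested. Within 100 bp of the summit 10 genes had E2F, 2 ETS and 4 GATA letters, and the cause was not tested. In all, 113 alternative values of the main counts and medians kept their size and 64 moved, and among single genes 247 kept theirs and 46 moved. No paired analysis was possible because there is 1 group. Library depth is unknown, and whether the promoters of Ccnd1, Cdk6 and Cdkn1a would be called with more reads was not tested.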
